A study of Mus musculus with 24 samples.

Results

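The 45 genes described here code for nucleolar factors of ribosome biogenesis. They were chosen by gene symbol, as a list made with earlier results of these data known. Shares set beside those of all genes are therefore descriptive. All 45 were found among the 54838 genes of the expression table, and all 45 were among the 12899 genes kept by the filter on low values. RNA came from epithelial organoids of the ventral prostate of mice aged 4 months, grown in domes of Matrigel, a basement membrane gel. The genotypes were Tmprss2-ERG, shortened to T-ERG, and Tmprss2-fl/fl-ERG, for which the submitters use the name control. Both names hold Tmprss2 and ERG, the labels give no other allele and no agent for either group, and they do not say in which cells an allele is active. Each genotype had 10 libraries, made of 5 domes from each of 2 organoid clones. The sources used here do not state whether the clones of a genotype came from separate mice, so that p-values measure only the spread between these clones or domes.

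Ribosomes are begun in the nucleolus, where RNA polymerase I transcribes the long precursor of the ribosomal RNAs. Small nucleolar ribonucleoproteins (snoRNPs) guide its chemical modification, a large assembly called the small-subunit processome cuts and folds the part that becomes the small subunit, and other factors build the large subunit. The RNA of these factors is known to be abundant in growing cells, and many of them are known targets of the transcription factor MYC.

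The sequences at the starts of these genes were searched for 2 short motifs. The motifs were CACGTG, the canonical E-box bound by MYC with MAX and by related factors, which reads the same on both strands, and CCGGAAG, a core of sites bound by ETS factors, the family of ERG, searched on both strands. RefSeq promoters of build GRCm38.p6, from 250 bases before to 50 bases after a transcription start of the gene, were matched for 40 of the 45 genes. The E-box was found in 8 of these 40 (20.0%), against 12.0% of 9191 tested genes with a promoter and 8.09% of all 27025 genes in the promoter set. The ETS core was found in 13 of 40 (32.5%), against 21.2% of the tested genes and 9.93% of all. Both motifs were found in 3 genes, Ltv1, Nop2 and Tsr1, and at least 1 of them in 18. These shares describe letters in a window, no binding was measured, and a link of the motifs with the levels of the genes was not tested. The 80 bases just before the start of Nop2, on the plus strand at chr6:125131803-125131882, are shown because they hold both motifs, in capitals, and none of the transcript.
Nop2: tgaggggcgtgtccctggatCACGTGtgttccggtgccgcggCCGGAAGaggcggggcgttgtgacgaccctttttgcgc
The E-boxes of 5 other genes are shown within windows of 30 bases, with the motif in capitals, because their genes act at different steps, Imp4 and Wdr43 in the small-subunit processome and the others later or in the large subunit. They lie at chr1:34439696-34439725 (plus strand) for Imp4, chr17:71616220-71616249 (plus strand) for Wdr43, chr10:13193092-13193121 (minus strand) for Ltv1, chr11:3963965-3963994 (plus strand) for Pes1 and chr11:82908355-82908384 (minus strand) for Nle1.
Imp4: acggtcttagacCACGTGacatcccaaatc
Wdr43: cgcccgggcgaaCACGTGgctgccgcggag
Ltv1: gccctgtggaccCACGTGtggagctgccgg
Pes1: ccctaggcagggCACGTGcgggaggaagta
Nle1: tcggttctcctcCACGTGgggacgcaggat
The E-box of Imp4 began 121 bases and that of Nop2 60 bases before the start used in the promoter set. Those of Pes1, Wdr43, Nle1 and Ltv1 began 3, 18, 24 and 29 bases after it. For Wdr43 and Nle1 that start lies inside the gene, whose outer start is at 71616178 and 82908446. ETS cores are shown for Nolc1 (chr19:46075822-46075851, plus strand), Nhp2 (chr11:51619739-51619768, plus strand) and Heatr1 (chr13:12395348-12395377, plus strand), in which the core began 14, 23 and 16 bases before the start.
Nolc1: cgcgtgtgggaCCGGAAGcaacttctagat
Nhp2: cacttgaaaacCCGGAAGtgatgtcggagg
Heatr1: gtagtgagaagCCGGAAGttcctatgaggc

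Expression values are FPKM, fragments scaled by gene length and library size. Differences are between means of log2(FPKM + 1), so that those of weakly expressed genes come out too small. FPKM sums ran from 728255 to 794589 per library, an estimated relative depth ran from 0.843 to 1.19, and domes correlated with the other domes of their clone at medians of 0.960 to 0.968 over genes, so no library stood apart. The labelled tissue was checked against its markers. The epithelial gene Epcam, at 111 to 454 FPKM, and the basal keratin Krt5, at 4801 to 9895 FPKM, were present throughout. Of 10 secretory genes of the ventral prostate, 4 (Pbsn, Msmb, Spink1 and Sbpl) were at 0 in every library and 4 passed the filter. The summed list was at 527 to 557 FPKM in control clone 1 and 971 to 1048 FPKM in control clone 2. It was at 420.4 to 478 FPKM in T-ERG clone 1 and 290.7 to 309 FPKM in T-ERG clone 2. This sum was thus lower in every T-ERG library than in any control library. It is weighted to abundant genes, and the 4 that passed the filter did not move together. In control, limma called 1 of them higher and 2 lower in clone 2 than in clone 1. Their mean log2 level was 5.51 and 5.12 in control clones 1 and 2, and 4.89 and 3.80 in T-ERG clones 1 and 2. Only 2 of the 4 had clone means that were separate by genotype, with T-ERG lower. Below 1 FPKM in every library were 8 of 10 fibroblast and smooth muscle markers, 7 of 8 leukocyte markers and 5 of 6 endothelial markers, and Ptprc, the pan-leukocyte gene, was at 0. The summed fibroblast and smooth muscle list reached at most 5.26 FPKM, the leukocyte list 12.3 FPKM and the endothelial list 2.4 FPKM in any library. The 5 domes of a clone differed by a median SD of 0.14 log2 units per gene of the 45, and by 0.72 at most, for Rrp1b in control clone 1.

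The comparison of T-ERG with control asks how the organoids differ by genotype, with the clone as the replicate. All 45 genes had a higher mean in T-ERG, by a median of 0.78 log2 units against 0.01 over all genes tested, and the differences ran from 0.03 for Nop10 to 1.41 for Gnl3. No gene of the 45 passed in limma on the 4 clone means (adjusted p from 0.574 to 0.941), as none of the 12899 did (0%), and the smallest adjusted p of any gene was 0.281. At an unadjusted p below 0.05, 25 of the 45 were higher in T-ERG and 0 lower, against backgrounds of 3.7% and 4.74%. A fit of all 20 libraries with the clone as a random block called 31 of the 45, against 10.8% of all genes in either direction. It gives domes of a clone a common correlation, 0.46, in all genes, so it counts domes in part as replicates of a genotype. For the mean log2 level over the 45 genes, the SD was 0.37 between clones of a genotype and 0.036 between domes. These SDs are of a mean over genes, which lowers the noise of domes. They cannot be set directly against the 0.46, which is taken over single genes. Because the fit counts domes in part as replicates, its 31 calls overstate the evidence. The clone means did not overlap between the genotypes for 39 genes, which were all higher in T-ERG (background 21.7%, and 23.2% for lower). No control library reached the lowest T-ERG library in 19 genes, against a background of 2.5%. Without T-ERG clone 2 the median difference was 0.51, and it lay between 0.59 and 1.08 without each other clone in turn. Among the genes whose values by library or range are given, the difference moved by over 1.5 times without T-ERG clone 2 for Nle1 (to 0.25), Polr1b (0.59), Wdr12 (0.54), Nop56 (0.82), Ncl (0.57), Fbl (0.59) and Npm1 (0.35). It did so without control clone 1 for Nop56 (0.78), Nop16 (0.70) and Npm1 (0.34), and without T-ERG clone 1 for Nle1 (1.03) and Polr1a (0.80). Polr1a changed sign without T-ERG clone 2 (-0.059). The small differences of Nop10 and Imp3 also moved by more than this, from -0.040 to 0.11 and from -0.042 to 0.15.

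The 4 clones took a common order. In 39 of the 45 genes the means ranked control clone 1 lowest, then control clone 2, T-ERG clone 1 and T-ERG clone 2, an order found in 13% of all genes tested. The mean log2 level over the 45 genes was 4.28 ± 0.05 (SD, 5 domes) in control clone 1, 4.75 ± 0.02 in control clone 2, 5.02 ± 0.04 in T-ERG clone 1 and 5.59 ± 0.04 in T-ERG clone 2. The domes of different clones did not overlap on this scale. The 45 genes together took 0.220% to 0.225% of the FPKM sum in control clone 1, 0.303% to 0.314% in control clone 2, 0.348% to 0.367% in T-ERG clone 1 and 0.50% to 0.536% in T-ERG clone 2. In bulk RNA, fewer cells with a high level and less RNA in every cell cannot be told apart.

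**Figure D1:**
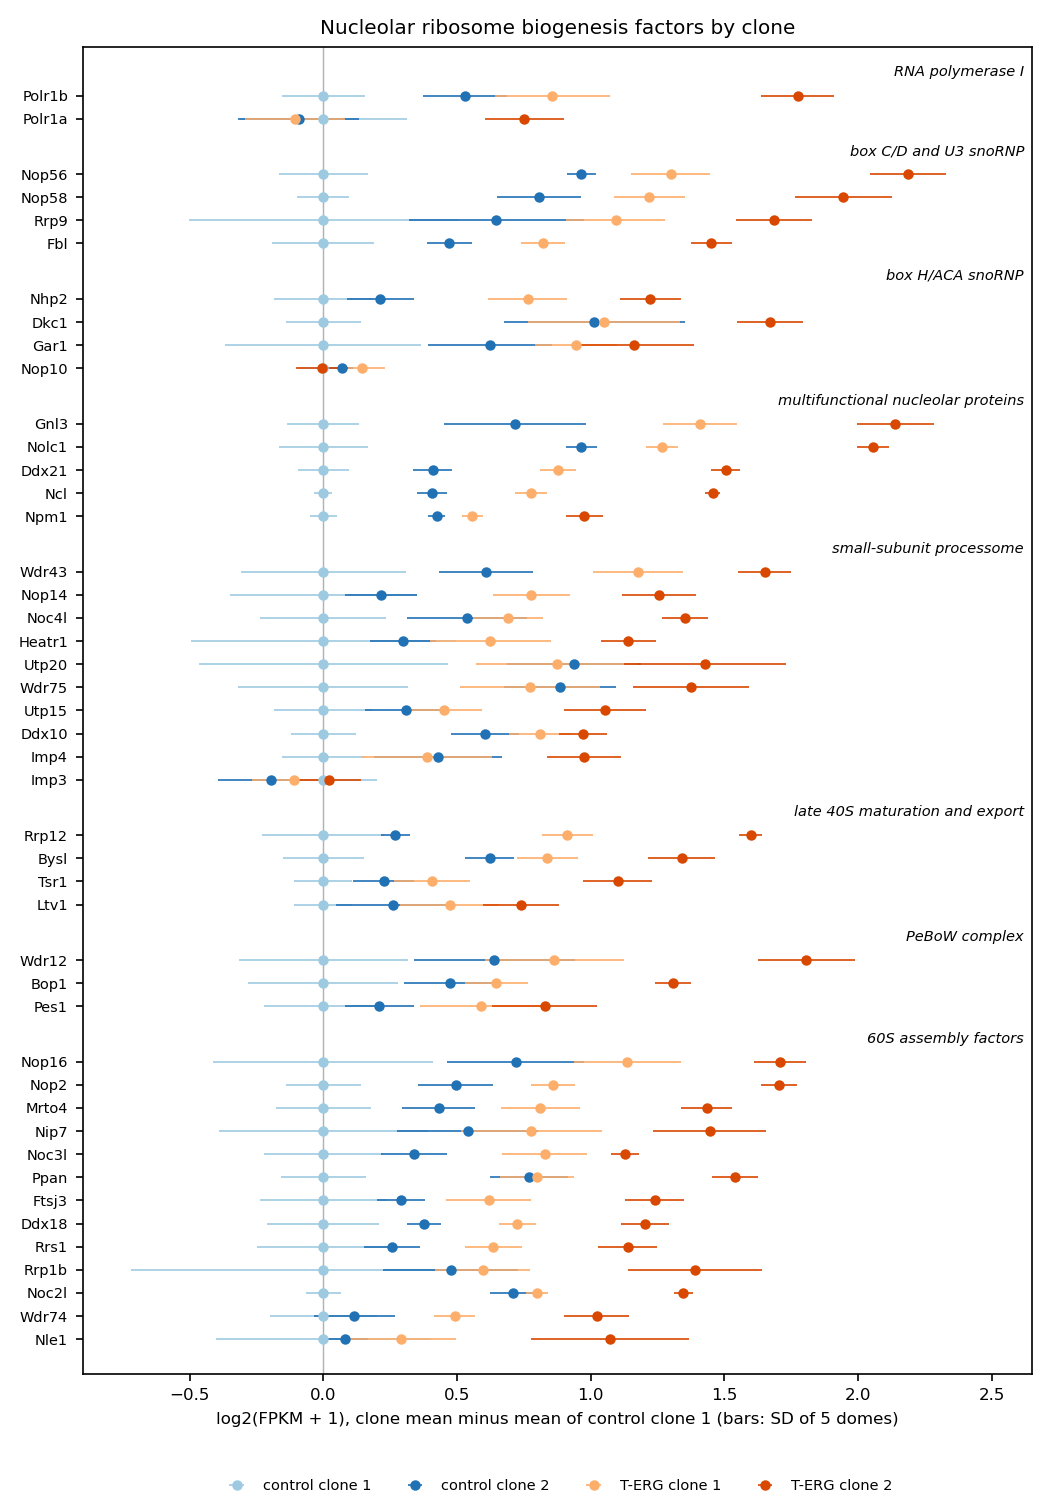
Level of each of the 45 genes in the 4 clones, as the clone mean of log2(FPKM + 1) minus the mean of control clone 1, with bars for the SD of 5 domes, grouped by role. For 39 genes the points run from control clone 1 through control clone 2 and T-ERG clone 1 to T-ERG clone 2, whereas those of Nop10 and Imp3 lie close together.

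RNA polymerase I was represented by its pair of large subunits, which did not behave alike. Polr1b ran from 4.15 to 8.03 FPKM in the 10 control libraries (median 5.92) and between 7.52 and 20.8 FPKM in the 10 of T-ERG (median 13.4). Its genotype difference was 1.05 ± 0.39 log2 units. For genotype differences each error is the SE from limma on 2 clones in each genotype, moderated towards the spread of other genes. Polr1a, the largest subunit, was at 8.42, 14.8, 8.77, 12.2 and 10.2 FPKM in the domes of control clone 1 and at 10.3, 10.9, 7.32, 11.4 and 10.4 FPKM in control clone 2. In T-ERG clone 1 it was at 8.95, 12.1, 10.6, 8.58 and 9.27 FPKM, and in T-ERG clone 2 at 21.4, 18.4, 17.0, 16.6 and 20.2 FPKM. Polr1a was thus high in T-ERG clone 2, whose 5 domes lay above the other 15 libraries, and the other 3 clones overlapped. Its genotype difference was 0.37 ± 0.33, and it was -0.059 without T-ERG clone 2.

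The box C/D snoRNP carries the enzyme that methylates ribosomal RNA. All 4 genes of this group had separate clone means with T-ERG higher (21.7% of all genes tested), with a median difference of 1.12 log2 units. Nop56 (chromosome 2, 130274367 to 130279313), a core scaffold, was at 50.7, 54.9, 47.4, 39.9 and 48.9 FPKM in control clone 1 and at 92.7, 94.4, 91.8, 94.5 and 101 FPKM in control clone 2. It was at 134, 131, 105, 114 and 118 FPKM in T-ERG clone 1 and at 232, 216, 199.99, 211 and 258 FPKM in T-ERG clone 2, so that no 2 clones overlapped. Its genotype difference was 1.26 ± 0.45 log2 units, and that of its paralog Nop58 was 1.18 ± 0.38. Fbl (fibrillarin, chromosome 7, 28168893 to 28179269), the methyltransferase itself, ran from 54.7 to 100.1 FPKM in control (median 82.0) and from 108 to 195 FPKM in T-ERG (median 147), without overlap and with a difference of 0.90 ± 0.29. Rrp9, a protein of the U3 snoRNP that is needed for the early cuts, differed by 1.07 ± 0.32, with overlapping libraries.

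The box H/ACA snoRNP converts uridines of ribosomal RNA to pseudouridine. Its 4 genes did not behave alike. Nhp2, an RNA-binding core protein, ran from 50.7 to 76.4 FPKM in control (median 65.5) and from 87.8 to 151 FPKM in T-ERG (median 121), without overlap, and differed by 0.89 ± 0.21 log2 units. Dkc1 (dyskerin), the pseudouridine synthase, differed by 0.85 ± 0.41 and Gar1 by 0.74 ± 0.25. Nop10, the smallest core protein, stayed between 71.4 and 83.6 FPKM in control and between 69.4 and 91.4 FPKM in T-ERG, with medians of 78.4 and 79.3. Its difference of 0.03 ± 0.14 had a 95% interval of -0.34 to 0.41, and it was -0.040 without T-ERG clone 1, so no direction can be given for Nop10.

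**Figure D2:**
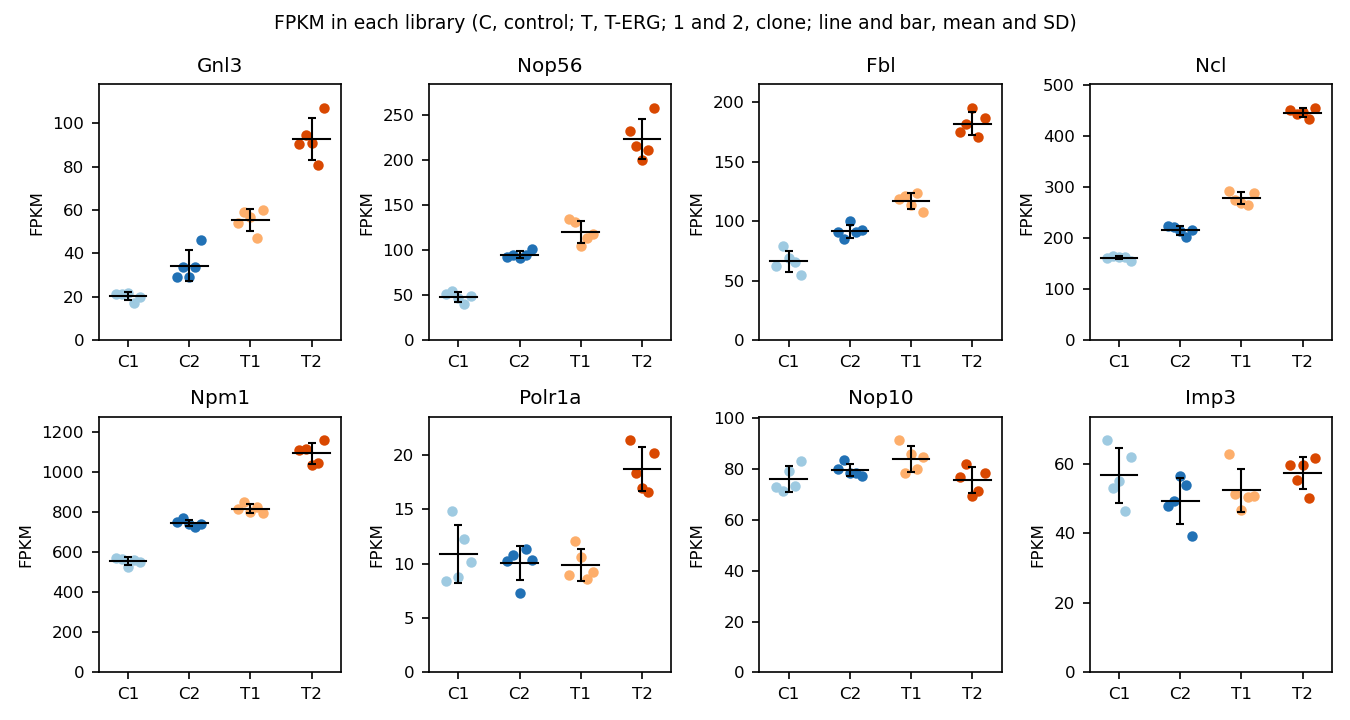
FPKM of 8 genes in each library, on axes that start at 0, with points for domes and a line and bar for the mean and SD of 5 domes. Gnl3, Nop56, Fbl, Ncl and Npm1 step up from control clone 1 to T-ERG clone 2, Polr1a is high in T-ERG clone 2, and the clones overlap for Nop10 and Imp3.

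Among the abundant nucleolar proteins of several functions, all 5 genes separated the 20 libraries by genotype, with T-ERG higher (2.5% of all genes tested). Gnl3 (nucleostemin, chromosome 14, 31012433 to 31019131), a GTPase of proliferating cells, had the largest difference of the 45, at 1.41 ± 0.36 log2 units. It was at 21.2, 21.4, 21.7, 17.1 and 20.0 FPKM in control clone 1 and at 29.0, 33.8, 29.1, 33.5 and 46.3 FPKM in control clone 2. In T-ERG clone 1 it was at 54.2, 59.3, 56.7, 47.1 and 60.03 FPKM, and in T-ERG clone 2 at 90.4, 94.4, 90.8, 80.9 and 107 FPKM. The highest control dome of Gnl3, at 46.3 FPKM, lay just below the lowest T-ERG dome, at 47.1 FPKM. Ncl (nucleolin, chromosome 1, 86344719 to 86359455), which binds the nascent precursor, ran from 156 to 223 FPKM in control (median 184) and from 265 to 455 FPKM in T-ERG (median 362), a difference of 0.91 ± 0.29. Npm1 (nucleophosmin, chromosome 11, 33152498 to 33164142), the most abundant of the 45, ran from 525 to 771 FPKM in control (median 651) and from 799 to 1161 FPKM in T-ERG (median 943), a difference of 0.55 ± 0.23. Processed copies of Npm1 may share its reads, which makes its value uncertain. Nolc1, a snoRNP chaperone, differed by 1.18 ± 0.43, and Ddx21, an RNA helicase that also acts with RNA polymerase I, by 0.99 ± 0.28.

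The small-subunit processome gave 10 genes, with a median difference of 0.66 log2 units. Of these, 6 had separate clone means with T-ERG higher, against 21.7% of all genes tested. Wdr43, a component that joins the precursor during transcription, differed most, at 1.11 ± 0.29. It ran from 19.5 to 46.2 FPKM in control (median 33.0) and from 46.1 to 85.1 FPKM in T-ERG (median 67.7), and the highest control library lay just above the lowest T-ERG library. Nop14 was the 1 gene of the 10 whose libraries were fully separate (background 2.5%), with a difference of 0.91 ± 0.23. Utp20, Wdr75 and Imp4 were higher in T-ERG by 0.68 ± 0.40, 0.63 ± 0.38 and 0.47 ± 0.28, but their means in control clone 2 lay above those in T-ERG clone 1. Imp3, a small partner of the U3 snoRNP, overlapped widely, with a range of 39.3 to 66.9 FPKM in control, a range of 46.6 to 62.8 FPKM in T-ERG and a difference of 0.05 ± 0.16. It was at -0.042 without control clone 2 and at -0.011 without T-ERG clone 2, so no direction can be given for it. Heatr1 and Utp15, of the subcomplex that also acts in transcription of the precursor, differed by 0.73 ± 0.25 and 0.60 ± 0.28. Noc4l, a partner of Nop14, differed by 0.75 ± 0.32 and the helicase gene Ddx10 by 0.59 ± 0.26.

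Factors that finish the small subunit and take it out of the nucleus had separate clone means in 4 of 4 genes. T-ERG was higher in each, as in 21.7% of all genes tested. Rrp12, an export adaptor, was the gene of lowest level among the 45. It ran from 2.07 to 3.60 FPKM in control (median 3.26) and from 5.49 to 10.5 FPKM in T-ERG (median 8.02), without overlap, a difference of 1.12 ± 0.30 log2 units. Ltv1, an assembly factor that leaves the particle late, had the smallest difference of the group, 0.48 ± 0.19, and its ranges of 14.9 to 23.5 FPKM in control and 20.9 to 30.7 FPKM in T-ERG overlapped. Bysl (bystin) differed by 0.78 ± 0.31 and Tsr1, a GTPase-like factor, by 0.64 ± 0.28.

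The PeBoW complex, made of Pes1, Bop1 and Wdr12, is needed for the large subunit. Its members differed by 0.60 ± 0.17, 0.74 ± 0.30 and 1.02 ± 0.41 log2 units. All 3 had separate clone means with T-ERG higher (21.7% of all genes tested), although in none were all libraries apart (2.5%). Pes1 ran from 25.5 to 42.5 FPKM in control (median 34.2) and from 40.6 to 68.3 FPKM in T-ERG (median 56.5). Wdr12 ran from 3.63 to 10.6 FPKM in control (median 6.19) and from 6.59 to 20.7 FPKM in T-ERG (median 12.9).

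The other factors of the large subunit numbered 13. All 13 had separate clone means with T-ERG higher (21.7% of all genes tested), in the same order of clones (13%). Their differences ran from 0.64 to 1.06 log2 units with a median of 0.78, and 7 separated all 20 libraries (2.5%). Nop16 differed most, at 1.06 ± 0.33, with 10.8 to 33.3 FPKM in control (median 21.9) and 29.4 to 55.9 FPKM in T-ERG (median 45.7). Nle1, a factor of late large-subunit maturation, differed least, at 0.64 ± 0.30, with 6.74 to 14.3 FPKM in control (median 8.93) and 9.15 to 26.3 FPKM in T-ERG (median 13.6). The libraries were fully separate for the rRNA methyltransferase gene Nop2 (1.03 ± 0.35), the helicase gene Ddx18 (0.78 ± 0.25), Rrs1, which brings the 5S RNA particle into the precursor (0.76 ± 0.23), and Mrto4, a placeholder for a protein of the ribosomal stalk (0.91 ± 0.29). They were also separate for Noc3l (0.81 ± 0.23), the methyltransferase gene Ftsj3 (0.78 ± 0.27) and Wdr74 (0.70 ± 0.23). The libraries overlapped for Nip7 (0.84 ± 0.32), Ppan (0.78 ± 0.38), Rrp1b (0.75 ± 0.34) and Noc2l (0.72 ± 0.33), although none of their clone means did.

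Clone 2 was compared with clone 1 inside each genotype with limma on 5 against 5 domes, which tests the difference between 2 cultures. In control, 28 of the 45 genes were higher in clone 2 and 0 lower, against backgrounds of 25.1% and 13.2% of all genes. The median difference was 0.47 log2 units, beside 0.10 over all genes. In T-ERG, 39 were higher and 0 lower, against 17% and 13.5%, with a median of 0.60 beside 0.03. Both comparisons called 26 genes higher (background 8.61%), 13 were called in T-ERG alone (8.43%) and 2, Gar1 and Ddx10, in control alone (16.5%). The 4 genes called in neither (background 66.5%) were Nop10, Imp3, Ltv1 and Pes1. Over all genes in control, calls were 3233 higher and 1706 lower as deposited, and 2390 higher and 2287 lower after median centring, where 26 of the 45 were still called higher. Centring and quantile normalization each called Nop10 lower in T-ERG clone 2.

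The largest clone differences in control were those of Dkc1 (1.01 ± 0.15, limma adjusted p = 0.000262), Nolc1 (0.97 ± 0.08, adjusted p = 3.29e-06) and Nop56 (0.97 ± 0.07, adjusted p = 1.73e-06). In T-ERG they were those of Wdr12 (0.94 ± 0.13, adjusted p = 0.000305), Polr1b (0.92 ± 0.11, adjusted p = 0.000101) and Nop56 (0.89 ± 0.08, adjusted p = 1.40e-05). Gnl3 had like clone differences in both, 0.72 ± 0.12 and 0.73 ± 0.08, and so had Npm1, with 0.42 ± 0.03 in control and 0.42 ± 0.04 in T-ERG. All 5 domes of clone 2 lay above all 5 of clone 1 for 20 genes in control (background 18.8%) and for 38 in T-ERG (background 12.9%).

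**Figure D3:**
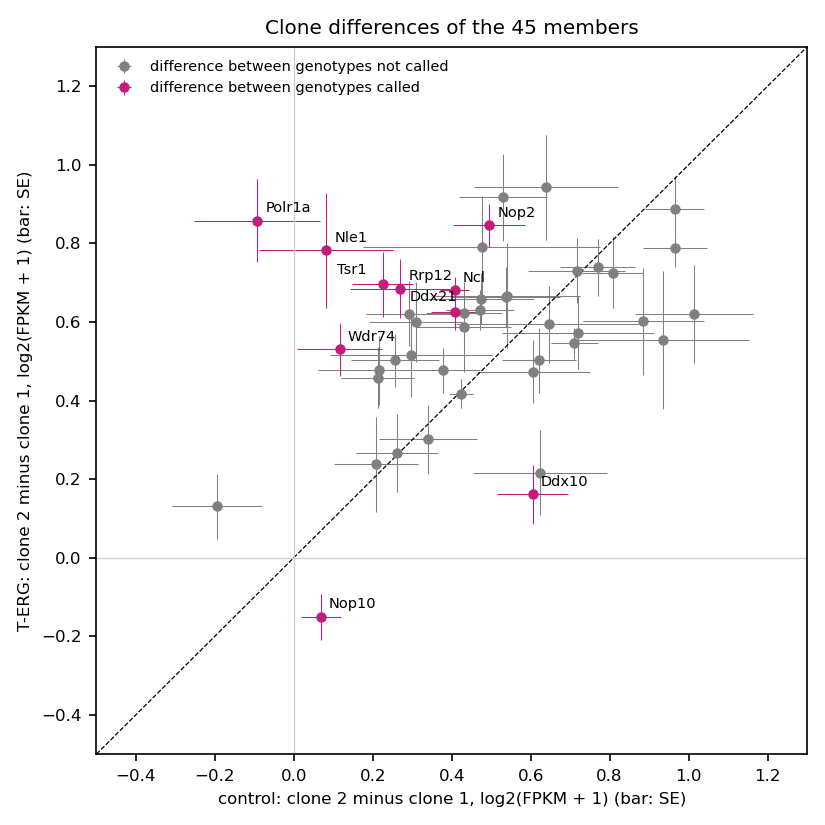
Difference of clone 2 minus clone 1 in log2(FPKM + 1), in control on the x axis and in T-ERG on the y axis, for the 45 genes, with SE bars, a dashed line of equality and named points for the 10 genes whose clone differences differed between genotypes. Polr1a lies farthest above the line, and Ddx10 and Nop10 lie below it.

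The clone differences themselves differed between the genotypes for 10 of the 45 genes (22.2%), near the background of 26.4%. The test takes single domes, and each genotype had only 2 clones, whose numbers name separate cultures. It therefore compares these cultures and cannot speak of the genotypes in general. They were larger in T-ERG for 8 genes and smaller for 2, against 9.75% and 16.7% of all genes. Polr1a had the largest such difference, 0.95 ± 0.20 log2 units (limma adjusted p = 0.000966), and Ncl the smallest p, with 0.41 ± 0.04 in control and 0.68 ± 0.03 in T-ERG (adjusted p = 0.000148 for the difference). Tsr1 (0.47 ± 0.11), Nop2 (0.35 ± 0.10), Rrp12 (0.42 ± 0.13), Wdr74 (0.41 ± 0.13), Nle1 (0.70 ± 0.23) and Ddx21 (0.22 ± 0.07) also had the larger step in T-ERG, and Ddx10 (-0.44 ± 0.11) and Nop10 (-0.22 ± 0.08) the smaller. Without the 2 T-ERG clone 2 libraries that share a column name, 5 genes were called (11.1%, background 23.1%), namely Polr1a, Nop10, Ncl, Ddx10 and Tsr1. Nop10 was not called after median centring or quantile normalization, and Polr1b, with 0.43 and 0.46, was called under both.

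Other genes of the pathway, taken from lists that leave out the 45, took the same order of clones in 34 of 44 small-subunit and 31 of 51 large-subunit factors. That order was found in 13% of all genes. No gene of these lists passed in limma on the 4 clone means. Over all genes, 21.7% had separate clone means with T-ERG higher and 23.2% with T-ERG lower. Of the 44 other small-subunit factors, 39 had separate clone means with T-ERG higher and 0 with T-ERG lower, with a median difference of 0.50 log2 units. Nol6, a processome scaffold, had the largest, 1.45 ± 0.29, with clone means of 7.49 and 11.4 FPKM in control and 22.6 and 32.4 FPKM in T-ERG. Of the 51 other large-subunit factors, 35 were separate with T-ERG higher and 0 lower, with a median of 0.46. Rrp15 was the largest of them, at 1.12 ± 0.36. Other RNA polymerase I genes gave 9 higher and 1 lower of 15 (median 0.37), snoRNP assembly and RNase MRP genes 13 and 0 of 18 (median 0.48), and the RNA exosome, which trims rRNA ends, 7 and 0 of 13 (median 0.42). In clone 2 of control, 18 of the 44 small-subunit factors were called higher and 0 lower, and 29 and 1 of the 51 large-subunit factors. The shares over all genes were 25.1% and 13.2%. In clone 2 of T-ERG, 30 small-subunit factors were called higher and 1 lower, and 34 and 3 large-subunit factors, against 17% and 13.5%.

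Cytosolic ribosomal protein genes, whose proteins these factors assemble, differed little between the clones of a genotype. Of 79 tested, 68 had separate clone means with T-ERG higher and 1 with T-ERG lower, against 21.7% and 23.2% of all genes. The median difference was only 0.17 log2 units, and Rps2 had the largest, 0.45 ± 0.20. Between clones their medians were 0.00 in both genotypes. In control 14 were called higher and 7 lower in clone 2, against 25.1% and 13.2% of all genes. In T-ERG 10 were called higher and 5 lower, against 17% and 13.5%. Their mean log2 level was 10.54 ± 0.05 and 10.56 ± 0.03 (SD, 5 domes) in the control clones and 10.72 ± 0.05 and 10.73 ± 0.06 in the T-ERG clones. Many have processed copies that may share their reads. No test was made of the difference between this list and the 45 genes.

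**Figure D4:**
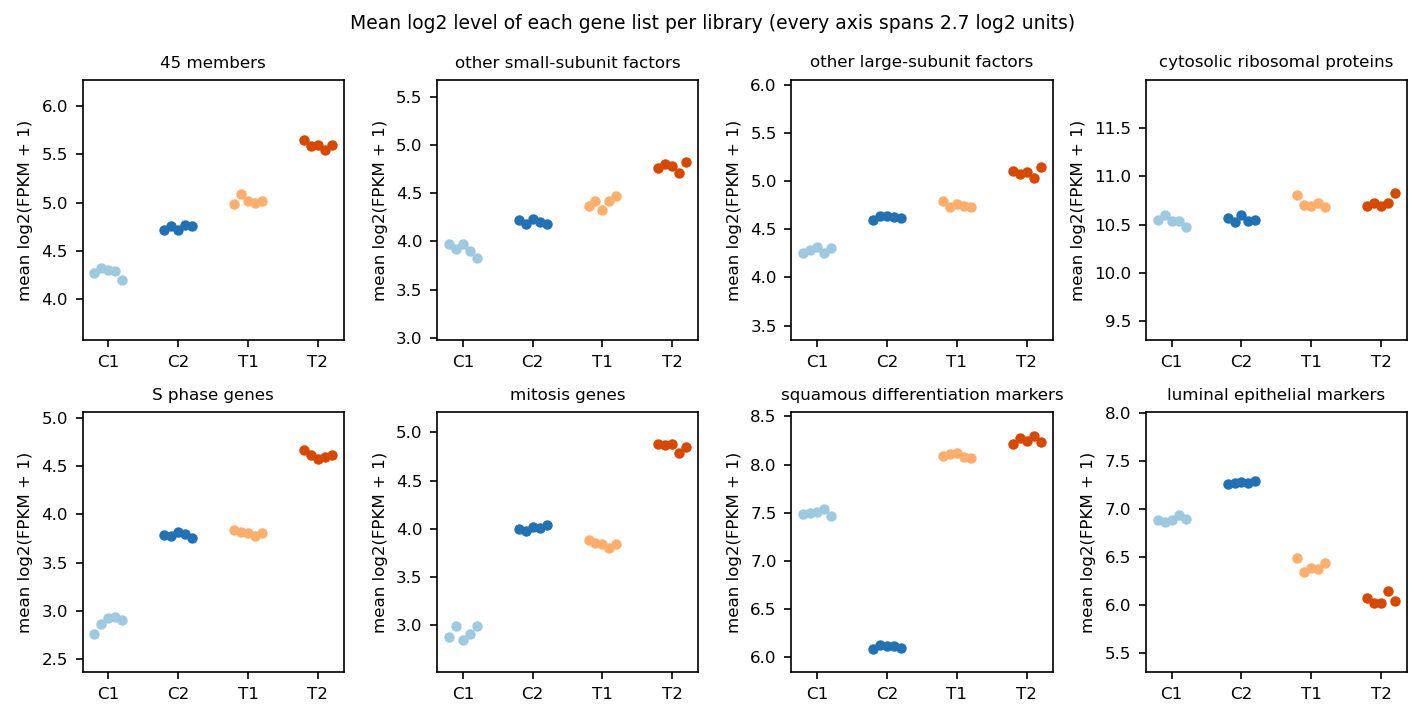
Mean log2(FPKM + 1) of 8 gene lists in each library, 5 domes per clone, with C for control, T for T-ERG and the clone number, on axes that all span 2.7 log2 units. The 45 genes step up over the 4 clones, ribosomal protein genes differ little, S phase genes have like levels in control clone 2 and T-ERG clone 1, at 3.79 and 3.81, and squamous markers are lowest in control clone 2.

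Markers of growth and of epithelial cell states were measured beside these genes. S phase genes had a median genotype difference of 0.88 log2 units and mean log2 levels of 2.88 ± 0.07 and 3.79 ± 0.03 in the control clones and 3.81 ± 0.02 and 4.61 ± 0.03 in the T-ERG clones. In clone 2, 27 of 30 were called higher in control and 28 in T-ERG, against 25.1% and 17% of all genes. Of the 30 S phase genes, 17 had separate clone means with T-ERG higher and 0 with T-ERG lower, against 21.7% and 23.2% of all genes. The clone order of the 45 genes was found in 16 of the 30 (13% of all genes). Mitosis genes had a median genotype difference of 0.87, with 25 of 25 above 0, and 24 of 25 were called higher in clone 2 in each genotype. Their mean log2 level was 2.92 ± 0.07 and 4.01 ± 0.02 in the control clones and 3.85 ± 0.03 and 4.85 ± 0.04 in the T-ERG clones. Of the 25 mitosis genes, 2 had separate clone means with T-ERG higher and 0 with T-ERG lower. Summed squamous markers were at 18476 to 19682 FPKM in control clone 1, 8090 to 8273 FPKM in control clone 2, 21427 to 22134 FPKM in T-ERG clone 1 and 23156 to 23808 FPKM in T-ERG clone 2. Summed luminal markers were at 6434 to 7018 and 6833 to 7001 FPKM in the control clones, and at 4057 to 4373 and 2760 to 2917 FPKM in the T-ERG clones. A sum gives most weight to abundant genes, and the genes of a list did not all move together. In clone 2, 1 of 19 tested squamous genes was called higher and 16 lower in control, and 11 and 6 in T-ERG. Of 12 luminal genes, 6 were called higher and 3 lower in control, and 2 and 8 in T-ERG. The shares of all genes called lower were 13.2% in control and 13.5% in T-ERG. Mitochondrial genes took 3.47% to 4.33% of the FPKM sum in control clone 1, 3.20% to 3.64% in control clone 2, 2.94% to 3.22% in T-ERG clone 1 and 2.67% to 3.33% in T-ERG clone 2. The part of growth, cell type makeup and RNA composition in the levels of the 45 genes was not tested.

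Myc itself had clone means of 36.4 and 55.6 FPKM in control and 67.4 and 73.5 FPKM in T-ERG, the order seen in the 45 genes, with a genotype difference of 0.63 ± 0.24 log2 units (limma adjusted p = 0.574). The 10 tested genes of the MYC, MAX and MXD family had a median of -0.16, with 2 separate in each direction. Myc was higher in clone 2 in control, by 0.61 ± 0.08 (limma adjusted p = 0.000106), and differed by 0.13 ± 0.09 between the T-ERG clones (adjusted p = 0.315). The difference between these steps was -0.48 ± 0.12 (adjusted p = 0.00566).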

How the data were processed

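RNA was measured in 20 libraries. A further 4 libraries of whole-genome sequencing were not used here. The authors deposited log2(FPKM + 1) for each gene, a scale checked on the values, since undoing the log gave FPKM with 2 decimals. Per the submitters' processing notes, RSEM 1.3.0, DESeq2 and build mm10 were used. Their roles, an aligner and an annotation are each not given in the sources used here. Per the labels' protocols, barcodes were added to the cDNA before pooling and fragmentation. Whether fragments cluster at transcript ends is not given, so levels of genes of different length may not be comparable. FPKM holds no read counts, so absolute depth is unknown, and only a relative depth was estimated.

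Columns were matched to samples by name. The 2 T-ERG columns with the same name were used as unnumbered libraries of clone 2, since only clone 2 samples were left without a column.

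Genes that reached 1 FPKM in 5 or more libraries were tested with limma 3.58.1 in R 4.3.3 (empirical Bayes, intensity trend, two-sided, Benjamini-Hochberg over 12899 genes, threshold 0.05). Genotypes were compared on 4 clone means, clones on single domes, and clone differences in 1 fit of 20 libraries. Scripts were tested on simulated data. The members and lists were chosen with earlier results of these data known. Values by dome or range were given for Gnl3, Nop56, Fbl, Ncl, Npm1 and the genes of largest and smallest genotype difference in each role, and other genes were picked after their values were seen. Gene coordinates are 1-based, from RefSeq on GRCm38.p6, the assembly of mm10. Alternatives covered the pseudocount (0.1), the filter, scaling, the trend, blocks and left-out clones or libraries.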

Additional observations from a re-analysis of the deposited data

Results flagged for a closer look

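In 10 of 180 sets of 5 domes, 1 dome lay far from the other 4 by Dixon's test, and chance flags about 1 in 20 such sets. Polr1a was at 7.32 FPKM in control clone 2 dome 3, against 10.3 to 11.4 FPKM in the others. Polr1b was at 5.73 FPKM in control clone 1 dome 1 (others 4.15 to 4.44), and in dome 5 of that clone Nop58 was at 67.1 FPKM (others 57.2 to 59.4) and Rrs1 at 22.7 FPKM (others 32.8 to 34.6). In control clone 2, Rrp12 was at 3.11 FPKM in dome 4 (others 3.40 to 3.52) and Noc2l at 35.5 FPKM in dome 1 (others 40.3 to 41.2). In T-ERG clone 1, Wdr43 was at 46.1 FPKM in dome 1 (others 57.7 to 63.1) and Bysl at 13.6 FPKM in dome 5 (others 11 to 11.7). In T-ERG clone 2, Ltv1 was at 23.6 FPKM in unnumbered library b (others 28.8 to 30.7) and Wdr74 at 32.4 FPKM in dome 3 (others 38.6 to 39.9).

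The step from clone 1 to clone 2 differed between the genotypes for 10 genes in limma on 20 libraries, given here as the step in T-ERG minus that in control in log2 units. It was 0.95 for Polr1a (adjusted p = 0.000966), 0.27 for Ncl (0.000148), 0.47 for Tsr1 (0.00344), 0.35 for Nop2 (0.0165), 0.41 for Wdr74 (0.0203), 0.42 for Rrp12 (0.0264), 0.70 for Nle1 (0.0307) and 0.22 for Ddx21 (0.0328). It was -0.44 for Ddx10 (0.00529) and -0.22 for Nop10 (0.0411), which was not called after median centring or quantile normalization. Clone numbers name separate cultures in each genotype, and 26.4% of all genes were called in the same way.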

How the results depend on the processing

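No member was called by genotype in limma on clone means under any alternative run. The 20-library fit that takes clone as random block called 31, beside 10.8% of all genes, but it counts domes in part as replicates. The replicate block on the clone number called 0, and its clone differences correlated at 0.17 over genes between the genotypes, from 2 pairs that share only a number. Dome numbers did not pair the samples (correlations of -0.01 to 0.06). The replicate block on dome numbers gave 29 members higher in control (22.7% of all genes) and 26 in T-ERG (5.54%), where 3 pairs were left and the median clone difference was 0.56. Without each clone in turn, the genotype difference ran from -0.059 to 0.80 for Polr1a, from -0.040 to 0.11 for Nop10 and from -0.042 to 0.15 for Imp3, which was at -0.011 without T-ERG clone 2. Median centring moved the median clone difference to 0.38 (control) and 0.56 (T-ERG), and quantile normalization 0.39 in control. Each called 1 member, Nop10, lower in T-ERG clone 2, and so did leaving out unnumbered library b, so that 0 to 1 members were lower without single libraries. The median clone difference in control was 0.41 to 0.49 without single libraries. Without the 2 unnumbered libraries, an alternative chosen after seeing the data, 5 members had clone differences that differed between genotypes (23.1% of all genes), and the cause was not tested. Among all 20 libraries, median centring and quantile normalization each ended this call for Nop10 and made it for Polr1b. The number of domes and clones limits the precision.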
